A study of Homo sapiens with 48 samples.

Results

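The 98 genes described here had more mRNA 48 h after silencing of IRE1 and less mRNA 48 h after silencing of XBP1, in every clone examined. They were chosen from the deposited table of log2 CPM (CPM is a gene's count relative to its library's total, scaled between libraries by TMM factors). For each clone the mean of the 0 h libraries was subtracted from the mean of the 48 h libraries. A gene was kept if its mean over all libraries was at least 1, if the difference was at least 0.25 in both shIRE1 clones, and if it was at most -0.25 in both shXBP1 clones. The table held 18401 genes, of which 12012 had a mean of at least 1. Of these, 2477 passed the limit in both shIRE1 clones, 481 passed it in both shXBP1 clones, and 98 passed all limits, which is 0.816% of 12012. The 48 h values of these genes are therefore given as a description, with no test.

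RNA came from AMO1, an established human multiple myeloma line derived from a plasmacytoma. The cells were clones carrying 3 short hairpin RNAs (shRNAs) each, switched on by doxycycline (Dox) at 0.2 µg/ml. The shRNAs of shIRE1 clones 1 and 3 target ERN1, which encodes IRE1, and those of shXBP1 clones 1 and 18 target XBP1. Each clone was harvested at 0 h without Dox and after 24, 48 and 72 h with Dox, in 3 replicate flasks, giving 16 groups and 48 libraries. Each clone had its own 0 h libraries as its sole control. Without a non-targeting hairpin for comparison, responses to Dox or to hairpin expression cannot be told apart from silencing. A clone descends from 1 line, and 2 clones stand for each target.

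IRE1 is an endoplasmic reticulum (ER) membrane protein with a kinase and an RNase on its cytosolic side. Its RNase removes a short intron from XBP1 mRNA, so that the spliced form encodes XBP1s, a transcription factor that raises ER folding, ER-associated degradation and secretory capacity. The same RNase cleaves a number of other mRNAs, many of them translated at the ER, in a process called regulated IRE1-dependent decay (RIDD). An mRNA cut in this way is expected to accumulate when IRE1 is lost. In plasma cells without XBP1, IRE1 has been found to be more abundant and more active, and such an mRNA would then decline. The rule was written to collect mRNAs with that pair of responses, but it uses mRNA levels only and records no cleavage.

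Total counts per library ranged from 19177855 to 40767202, so that 1 count was at most 0.0521 CPM. In shIRE1 clone 1, ERN1 libraries stood at 151, 152 and 155 CPM (0 h) and at 93.2, 95.2 and 102 CPM (48 h). For clone 3 of the same target the ERN1 values were 414, 447 and 436 CPM (0 h) and 127, 120 and 119 CPM (48 h). The ERN1 libraries of the 2 times did not overlap in either clone, and the log2 difference was larger in clone 3 (-1.84 ± 0.04, SE) than in clone 1 (-0.67 ± 0.05, SE). XBP1 mRNA was lower by -2.23 ± 0.07 (SE) in shXBP1 clone 1 and by -1.93 ± 0.04 (SE) in shXBP1 clone 18. ERN1 itself was higher by 0.62 ± 0.02 (SE) in shXBP1 clone 1 and lower, at -0.28 ± 0.02 (SE), in shXBP1 clone 18, so the shXBP1 clones shared the direction of the 98 genes but not that of ERN1. All 9 plasma cell markers examined were above 1 CPM on average, among them SDC1, CD38 and IRF4, and the markers of B cells, myeloid cells, erythroid cells and fibroblasts were all below it. CD3E of the T cell list and CDH1 of the epithelial list were above it, and the other 3 markers of each list were not. One library goes against its label: the library labelled shXBP1 clone 18, 72 h, replicate 3 lay at 0.0388 on a scale of 23 marker genes on which clone 1 libraries spanned -0.0303 to 0.0745 and the other clone 18 libraries 0.973 to 1.02. Results at 72 h in clone 18 are given with and without it where it matters. The library labelled shIRE1 clone 3, 24 h, replicate 1 correlated better across genes with shIRE1 clone 1 at 24 h (0.9961) than with its own group (0.9928). No scale of marker genes was made for the shIRE1 clones, so its label was not checked in that way. Results of shIRE1 clone 3 that use 24 h libraries include it unless stated.

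The sites at which IRE1 cuts XBP1 lie in stem-loops whose 7-base loop reads CNGCAGN, with N any base, and cleaved mRNAs of RIDD often carry such a loop. A search of the reference transcripts for that loop closed by a stem of 4 base pairs found both sites of unspliced XBP1 and 6 of the 78 protein-coding genes among the 98. The sequences below, 27 bases each with the loop in capitals, show the matches in these genes beside the sites of XBP1.
XBP1, first site: tctgctgagtCCGCAGCactcagacta
XBP1, second site: acgtgcacctCTGCAGCaggtgcaggc
DGAT2: tgggagtggcCTGCAGTgccatcctca
FUK: tgaccttgtcCTGCAGGgacaccacac
STOML1: accttcctggCTGCAGTccaggcccgt
FZR1: cggggaccctCAGCAGCaggggctctg
SFXN5: cagttggcctCAGCAGAaggccttgcc
The first XBP1 site lies at chr22:28796139-28796165 and the second at chr22:28796113-28796139, both in the coding sequence on the minus strand (GRCh38, GENCODE transcripts). DGAT2, which encodes the enzyme of the last step of triglyceride synthesis, has its match in the coding sequence on chromosome 11 (plus strand), across an exon junction, 472 bases into a transcript of 2407 bases. FUK, the fucokinase gene, also has its match in the coding sequence, at chr16:70471265-70471291 on the plus strand. The matches of STOML1 (chr15:73983421-73983447, minus strand), FZR1 (chr19:3535041-3535067, plus strand) and SFXN5 (chr2:72943717-72943743, minus strand) lie in 3′ untranslated regions. The sixth match is not printed here.

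The share of genes with this stem-loop was 7.69% (6 of 78) against 3.82% of all 10359 protein-coding genes with a mean of at least 1. Of the 6 transcripts with a match 4 were longer than 4000 bases, a class that held 14 of the genes, so that 28.6% of that class had one against 5.63% of all genes of that length. No match was found in the 23 shortest coding transcripts, below 2000 bases, against 1.71% of all genes of that length. The core of the loop, CNGCAG, without a required stem, occurred at a median of 3.23 per kb of transcript, against 1.88 per kb in all genes. The core is itself rich in G and C, and the median GC content of the transcripts was 61.4% against 47.7% in all genes. Neither the stem-loop nor the core was compared with genes of like GC content, so the part of base composition was not tested. A match is a string of letters and no measured site of cleavage.

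At 48 h the 98 genes were higher by a median of 0.632 in shIRE1 clone 1 and 0.764 in shIRE1 clone 3 on the log2 scale. They were lower by medians of -0.500 in shXBP1 clone 1 and -0.362 in shXBP1 clone 18. The medians over all 12012 genes lay between -0.0297 and 0.0113 in the same comparisons. The largest values were 2.54 and 2.78 in shIRE1 clones 1 and 3, and -1.65 and -1.3 in shXBP1 clones 1 and 18.

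**Figure D1:**
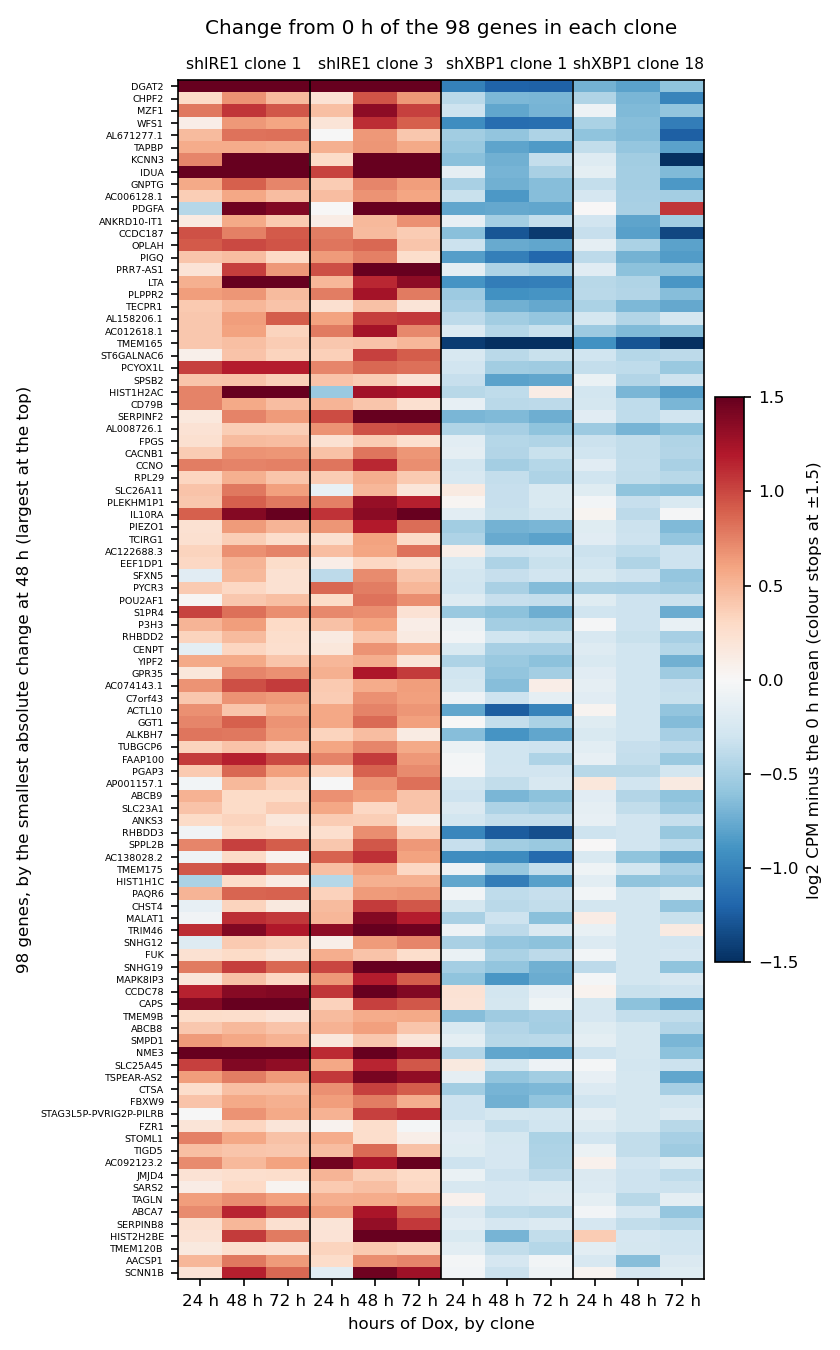
Change from 0 h in mean log2 CPM of the 98 genes (rows) at 24, 48 and 72 h of Dox (columns) in each clone, with red for higher and blue for lower values and colour limits at ±1.5. Rows are ordered by the smallest absolute change at 48 h, from DGAT2 at the top to SCNN1B at the bottom. The 48 h columns chose the genes, and the red cell of PDGFA in shXBP1 clone 18 at 72 h includes the library that goes against its label.

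The values at 24 h share the 0 h libraries with the rule, so they too are a description. The medians at 24 h were 0.407, 0.473, -0.271 and -0.191 in shIRE1 clones 1 and 3 and shXBP1 clones 1 and 18, and at 72 h they were 0.551, 0.652, -0.472 and -0.496. Single libraries moved the smaller of these: in shXBP1 clone 1 the 24 h median was -0.107 without 0 h replicate 1 and -0.422 without 24 h replicate 2, and in shXBP1 clone 18 it was -0.116 without 24 h replicate 1. At 24 h all 4 limits were met by 17 of the 98 genes, while 0.275% of all genes met them. At 72 h they were met by 54 genes, with 1.33% of all genes meeting them, and by 52 without the library of clone 18 that goes against its label (1.31% of all genes). The median share of the 48 h change already present at 24 h was 65.5% and 57.8% in shIRE1 clones 1 and 3 and 56.0% and 55.5% in shXBP1 clones 1 and 18.

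Counting libraries in place of means gave the following. At 24 h all 3 libraries lay above all 3 libraries of 0 h for 64 of the 98 genes in shIRE1 clone 1 (33.7% of all genes) and for 69 in shIRE1 clone 3 (27.2% of all genes). All 3 lay below for 20 genes in shXBP1 clone 1 (18.9% of all genes) and for 38 in shXBP1 clone 18 (17.5% of all genes). In shXBP1 clone 1 at 24 h the share of these genes was thus close to that of all genes. At 72 h the counts were 82 (36.3% of all genes) and 68 (31.5%) in shIRE1 clones 1 and 3, and 59 (29.2%) and 70 (17.4%) in shXBP1 clones 1 and 18, or 75 (21.5%) in clone 18 without the library that goes against its label. Even at 48 h, where the rule acted, the libraries overlapped for some genes: 89 and 98 genes did not overlap in shIRE1 clones 1 and 3 (35.7% and 37% of all genes), and 64 and 62 in shXBP1 clones 1 and 18 (24.6% and 18.8%).

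The genes are described below by what their products do. These roles were given to 72 of the genes after their values had been seen, and 26 genes received none.

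Among 5 genes of lipid and glycosylphosphatidylinositol (GPI) metabolism, DGAT2 headed the whole set when genes were ranked by the smallest of their 4 absolute changes. DGAT2 (ENSG00000062282, chromosome 11 from 75759512 to 75801535) had 0 h levels of 15.2, 17 and 14.7 CPM in shIRE1 clone 1, followed by 51.1, 49.4 and 54.3 CPM at 24 h, 57.8, 59.1 and 56.6 CPM at 48 h and 54.2, 57.6 and 58.1 CPM at 72 h. Its libraries of shIRE1 clone 3 stood at 9.91, 10.5 and 9.82 CPM at 0 h, and at 48.9, 53.9 and 54.7 CPM at 24 h, 50.9, 51.5 and 57.1 CPM at 48 h and 56.1, 53.6 and 53.9 CPM at 72 h. All libraries with Dox were far above those at 0 h in both clones, and most of the change was there by 24 h (89.9% and 99.0% of the 48 h value). The other target gave the opposite: in shXBP1 clone 1 DGAT2 stood at 18.9, 15.7 and 17.4 CPM at 0 h and at 8.30, 7.26 and 7.16 CPM at 48 h. In shXBP1 clone 18 it stood at 9.70, 9.52 and 9.03 CPM at 0 h and at 5.36, 4.97 and 5.86 CPM at 48 h. The groups did not overlap, and the log2 differences at 48 h were 1.87 ± 0.06, 2.38 ± 0.06, -1.2 ± 0.10 and -0.80 ± 0.08 (SE, 3 libraries a group) in the order of the clones above.

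PIGQ, a subunit of the enzyme that starts GPI anchor synthesis, was also on the list of mRNAs that have been reported as cleaved by IRE1. It had 0 h levels of 10.5, 10.4 and 13.4 CPM in shIRE1 clone 1, followed by 18.7, 15.5 and 13.6 CPM at 48 h, and in shIRE1 clone 3 levels of 12.5, 12.2 and 16 CPM, followed by 25.2, 20.3 and 23.5 CPM. In shXBP1 clone 1 it went from 31.3, 17.3 and 15.4 CPM to 13.6, 7.09 and 10.5 CPM, and in shXBP1 clone 18 from 16.6, 12.2 and 12.9 CPM to 7.66, 7.00 and 11.2 CPM. The libraries separated completely, by narrow gaps, yet the replicates of 1 group spread far more than for DGAT2, which shows in the SE of 0.41 on a difference of -1.03 in shXBP1 clone 1. PCYOX1L, a homologue of prenylcysteine oxidase, had differences of 1.17 ± 0.06, 0.86 ± 0.05, -0.52 ± 0.10 and -0.39 ± 0.04 (SE). PLPPR2, a member of the phospholipid phosphatase family, had 0.66 ± 0.05, 1.25 ± 0.03, -0.91 ± 0.28 and -0.44 ± 0.08 (SE). PGAP3, which remodels the lipid of GPI anchors, had 0.86 ± 0.09, 0.89 ± 0.05, -0.29 ± 0.17 and -0.42 ± 0.11 (SE).

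**Figure D2:**
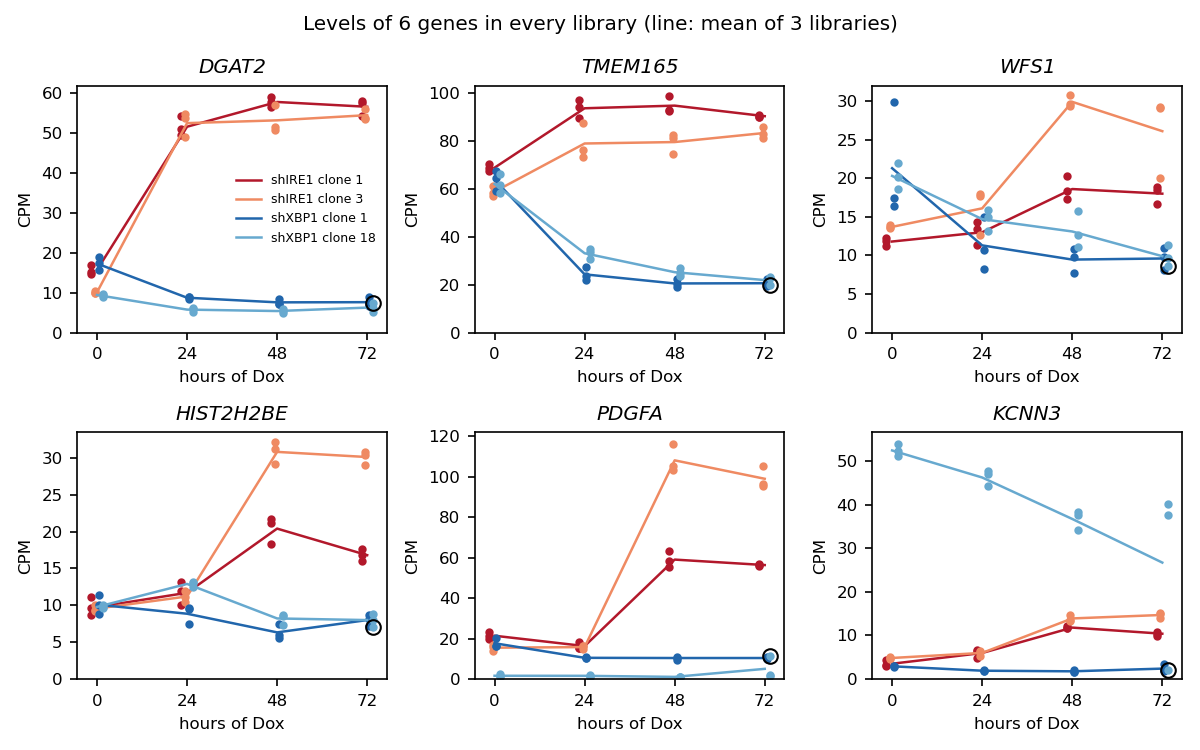
Levels in CPM (vertical axes, from 0) of 6 of the genes in every library against hours of Dox, with 1 point a library, lines through the means of 3 libraries and 1 colour a clone. The circled points are the library labelled shXBP1 clone 18, 72 h, replicate 3, which lies with shXBP1 clone 1 for KCNN3 and PDGFA. In the shIRE1 clones DGAT2 and TMEM165 are near their later levels by 24 h, and WFS1, HIST2H2BE, PDGFA and KCNN3 are higher at 48 h than at 24 h.

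Among 7 genes of the Golgi and of glycan synthesis, TMEM165 had the lowest 48 h values of all 98 in both shXBP1 clones. TMEM165 (chromosome 4 from 55395957 to 55453397), a Golgi membrane protein needed for manganese-dependent glycosylation, stood at 59.2, 64.7 and 67.3 CPM at 0 h in shXBP1 clone 1, and at 27.5, 21.9 and 23.6 CPM at 24 h, 19.1, 22.3 and 20.3 CPM at 48 h and 19.5, 19.8 and 22.4 CPM at 72 h. For shXBP1 clone 18 the values were 61.5, 66.3 and 58.1 CPM at 0 h, and 33.5, 35 and 30.9 CPM at 24 h, 25, 27 and 23.5 CPM at 48 h and 23.3, 22.6 and 19.8 CPM at 72 h. In shIRE1 clone 1 it stood at 68.6, 70.2 and 67.5 CPM at 0 h and at 92.5, 92.8 and 98.9 CPM at 48 h, and in shIRE1 clone 3 at 61.0, 58.3 and 57.0 CPM and at 74.7, 81.3 and 82.6 CPM. The 0 h and 48 h libraries overlapped in no clone, and the differences were 0.45 ± 0.04 and 0.42 ± 0.05 (SE) in the shIRE1 clones and -1.65 ± 0.09 and -1.3 ± 0.07 (SE) in the shXBP1 clones. CHPF2, an enzyme of chondroitin sulfate synthesis, had differences of 0.67 ± 0.07, 0.94 ± 0.12, -0.68 ± 0.15 and -0.68 ± 0.11 (SE). ST6GALNAC6, a sialyltransferase, had 0.43 ± 0.07, 1.02 ± 0.03, -0.40 ± 0.10 and -0.43 ± 0.08 (SE).

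Of 3 genes of the ER, WFS1 is a Ca2+-regulating membrane protein whose gene is also a known target of XBP1s. It stood at 11.2, 11.9 and 12.3 CPM at 0 h in shIRE1 clone 1, at 11.3, 14.3 and 13.4 CPM at 24 h and at 20.3, 18.3 and 17.3 CPM at 48 h. For shIRE1 clone 3 these were 13.5, 13.7 and 13.9 CPM, then 12.6, 17.7 and 18 CPM and then 29.4, 30.8 and 29.6 CPM. The libraries of 24 h overlapped those of 0 h in both clones and those of 48 h did not. In shIRE1 clone 3 the overlap at 24 h rested on replicate 1, at 12.6 CPM, and the other libraries of 24 h lay above those of 0 h. Replicate 1 of that group is the library that correlated better with shIRE1 clone 1 at 24 h. With XBP1 silenced, in clone 1, WFS1 stood at 29.9, 17.4 and 16.4 CPM at 0 h and at 10.8, 7.76 and 9.82 CPM at 48 h, and in shXBP1 clone 18 at 22, 18.6 and 20.2 CPM and at 11.1, 12.6 and 15.7 CPM. TAPBP, tapasin, which loads peptides onto MHC class I molecules, had differences of 0.56 ± 0.08, 0.66 ± 0.03, -0.79 ± 0.12 and -0.58 ± 0.06 (SE), with its libraries at 132 to 153 CPM at 0 h and at 199 to 226 CPM at 48 h in shIRE1 clone 1.

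Of 10 genes of the lysosome and its membrane traffic, IDUA, the α-L-iduronidase that degrades heparan and dermatan sulfate, had the highest value of all 98 in shIRE1 clone 1, at 2.54 ± 0.23 (SE) at 48 h. It stood at 0.641, 0.493 and 0.821 CPM at 0 h in shIRE1 clone 1, at 1.98, 2.61 and 2.18 CPM at 24 h and at 4.73, 3.91 and 3.62 CPM at 48 h. The same times in shIRE1 clone 3 gave 1.16, 1.18 and 1.26 CPM, 1.89, 3.08 and 2.74 CPM and 6.72, 6.84 and 6.5 CPM. Each step was clear of the one before in both clones. In shXBP1 clone 1 IDUA stood at 3, 1.04 and 1.35 CPM at 0 h and at 1.10, 0.886 and 0.997 CPM at 48 h, groups that overlapped, since 1 of the 0 h libraries lay within the range of 48 h. Its reads can also come from SLC26A1, which overlaps it. GNPTG, a subunit of the enzyme that tags lysosomal hydrolases, had differences of 0.90 ± 0.05, 0.74 ± 0.04, -0.72 ± 0.22 and -0.51 ± 0.09 (SE). CTSA, the protective protein cathepsin A, had 0.45 ± 0.04, 1.03 ± 0.07, -0.69 ± 0.07 and -0.26 ± 0.04 (SE). SMPD1, acid sphingomyelinase, had 0.58 ± 0.07, 0.40 ± 0.06, -0.41 ± 0.11 and -0.27 ± 0.03 (SE).

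The largest group held 16 genes of the cell surface, secretion and ion transport. PDGFA, a growth factor of mesenchymal cells, had the highest value of all 98 in shIRE1 clone 3, at 2.78 ± 0.10 (SE) at 48 h. It stood in shIRE1 clone 1 at 21.1, 23.3 and 19.6 CPM at 0 h, at 15.5, 18.1 and 15.2 CPM at 24 h and at 55.5, 63.2 and 58.2 CPM at 48 h. Levels in shIRE1 clone 3 were 17, 13.9 and 15.6 CPM, 15.1, 16.1 and 16.2 CPM and 116, 105 and 103 CPM. At 24 h it was below its 0 h level in clone 1 and within its spread in clone 3, so the higher level of 48 h was not there at 24 h. In shXBP1 clone 18 PDGFA was low throughout, at 0.992, 1.63 and 2.29 CPM at 0 h and 1.13, 1.10 and 1.04 CPM at 48 h, groups that overlapped, and the library that goes against its label stood at 11.6 CPM at 72 h beside 1.76 and 1.8 CPM. KCNN3, a calcium-activated potassium channel, was likewise unequal between the shXBP1 clones. It stood at 2.94, 3.04 and 2.82 CPM at 0 h and 1.97, 1.63 and 1.73 CPM at 48 h in clone 1, and at 51.1, 52.3 and 53.9 CPM and 37.5, 38.3 and 34.2 CPM in clone 18. The level differed many-fold between the clones while the log2 differences were near each other, at -0.72 ± 0.08 and -0.52 ± 0.05 (SE).

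In the shIRE1 clones KCNN3 stood at 3.32, 4.34 and 2.89 CPM and at 4.59, 4.88 and 5.05 CPM at 0 h, and at 11.6, 12.1 and 11.8 CPM and 13.6, 13.4 and 14.7 CPM at 48 h. LTA, the cytokine lymphotoxin α, had differences of 1.55 ± 0.12, 1.13 ± 0.05, -1.04 ± 0.16 and -0.45 ± 0.24 (SE). IL10RA, the interleukin 10 receptor chain that binds the cytokine, had 1.37 ± 0.06, 1.35 ± 0.05, -0.33 ± 0.10 and -0.40 ± 0.10 (SE). CD79B, a chain of the B cell receptor complex, had 0.56 ± 0.04, 0.42 ± 0.07, -0.40 ± 0.14 and -0.38 ± 0.09 (SE). PIEZO1, a mechanically gated cation channel, had 0.64 ± 0.18, 1.19 ± 0.19, -0.71 ± 0.36 and -0.32 ± 0.17 (SE), and its 0 h libraries in shXBP1 clone 1 stood at 374, 206 and 189 CPM.

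Of 7 genes of chromatin and the nucleus, 3 encode histones. HIST2H2BE (chromosome 1 from 149884459 to 149886682) stood in shIRE1 clone 1 at 9.58, 8.66 and 11.1 CPM at 0 h, at 9.98, 13.1 and 11.9 CPM at 24 h, at 18.3, 21.1 and 21.7 CPM at 48 h and at 16.8, 17.6 and 16 CPM at 72 h. Levels in shIRE1 clone 3 stood at 10.1, 9.42 and 9.17 CPM at 0 h, at 10.5, 12 and 11.1 CPM at 24 h, at 32.1, 31.2 and 29.2 CPM at 48 h and at 30.8, 30.4 and 29.0 CPM at 72 h. The step lay between 24 and 48 h in both clones. In shXBP1 clone 1 it went from 10.1, 8.88 and 11.4 CPM at 0 h to 5.54, 5.92 and 7.53 CPM at 48 h, and in shXBP1 clone 18 from 9.76, 9.98 and 9.60 CPM through 13.0, 12.5 and 13.2 CPM at 24 h to 7.39, 8.55 and 8.74 CPM at 48 h. In clone 18 every library was thus higher at 24 h and lower at 48 h than at 0 h. HIST1H2AC was below its 0 h level at 24 h in shIRE1 clone 3, at 10.5, 9.78 and 9.73 CPM after 15.2, 13.8 and 14.7 CPM, and then stood at 34.4, 36.7 and 34.4 CPM at 48 h. HIST1H1C, a linker histone, had differences of 0.28 ± 0.18, 0.53 ± 0.09, -1.04 ± 0.10 and -0.60 ± 0.08 (SE) at 48 h.

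The mRNAs of most histone genes end without a poly(A) tail in dividing cells. The libraries are taken here as made with a kit that captures poly(A) RNA, so these values would concern the captured form. The study's methods name a total RNA kit for a related experiment. A list of 24 proliferation genes, none of them among the 98, had medians at 48 h of -1.34 and -1.02 in the shIRE1 clones and of -0.389 and 0.0958 in shXBP1 clones 1 and 18, and its part in the histone values was not tested. POU2AF1, a B cell transcriptional coactivator, had differences of 0.41 ± 0.04, 0.81 ± 0.03, -0.35 ± 0.07 and -0.31 ± 0.06 (SE). CENPT, a kinetochore protein, had 0.33 ± 0.07, 0.67 ± 0.03, -0.50 ± 0.17 and -0.30 ± 0.09 (SE). MZF1, a zinc finger factor, had 1.07 ± 0.22, 1.34 ± 0.09, -0.78 ± 0.45 and -0.66 ± 0.18 (SE).

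The 7 genes of mitochondria had medians of 0.488, 0.708, -0.439 and -0.297 at 48 h in the order of the clones above. Of the 95 genes found in the annotation, 17 were non-coding or pseudogenes, 10 of them long non-coding RNAs, with medians of 0.679, 1.02, -0.503 and -0.448. They included PRR7-AS1, at 1.04 ± 0.10, 2.32 ± 0.16, -0.47 ± 0.09 and -0.61 ± 0.08 (SE), SNHG12, at 0.40 ± 0.03, 0.64 ± 0.07, -0.57 ± 0.24 and -0.27 ± 0.07 (SE), and MALAT1, an abundant nuclear RNA, at 1.11 ± 0.35, 1.37 ± 0.19, -0.32 ± 0.35 and -0.27 ± 0.21 (SE). ANKRD10-IT1, an RNA from within an intron of ANKRD10, had 0.57 ± 0.15, 0.48 ± 0.20, -0.51 ± 0.18 and -0.79 ± 0.28 (SE), and its reads cannot be told apart from those of its host where they share exons or unspliced RNA.

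Libraries taken at 24 and 72 h entered the choice of the genes through the minimum mean level only, and not through the limits on change, so the change between them was tested. The edgeR quasi-likelihood test was run over all genes that passed a filter on low counts, with Benjamini-Hochberg adjustment over them and a threshold of 0.05. Shares of all genes given for these tests are of the genes tested, 17154 and 17204 in shIRE1 clones 1 and 3. They were 16603 and 16860 in shXBP1 clones 1 and 18 and 18445 in the test of the difference below. These include genes below the mean level of 1 that each of the 98 had to reach. Shares over the 12012 genes as a whole were not taken for these tests. In shIRE1 clone 1, 31 of the 98 genes rose from 24 to 72 h (15.2% of all genes did) and 1 fell (13.9% of all genes), where 29.1% of all genes passed in either direction. In shIRE1 clone 3, 32 rose (16.4% of all genes) and 4 fell (17.1% of all genes). The share that rose was 31.6% and 32.7% of the 98 in the 2 clones, above that of all genes tested, while 55 of the 98 passed the test in neither clone. The median change was 0.133 in clone 1 and 0.178 in clone 3, against 0.000329 and -0.0126 over all genes.

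In the shXBP1 clones few genes of any kind passed. None of the 98 did in clone 1 by edgeR, where 0.0542% of all genes fell and 0.205% passed in either direction. DESeq2 called 1 and limma 0. An unadjusted p under 0.05 by edgeR was found for 15 of the 98. The share of all genes with one is not given here, so that count describes no trait of the 98. In clone 18 TMEM165 (-0.59 ± 0.09, SE, adjusted p = 0.0171) and HIST2H2BE (-0.68 ± 0.10, SE, adjusted p = 0.0235) fell, where 0.0949% of all genes fell and 0.0297% rose. Both calls were lost without replicate 2 or replicate 3 at 24 h, when none of the 98 passed, and 1 passed without replicate 2 at 72 h. DESeq2 called 14 of the 98 there (2.14% of all genes in either direction), and without replicate 1 at 72 h edgeR called 26 (5.79% of all genes). Without the library that goes against its label TAPBP passed too, at -0.43 ± 0.08 (SE, adjusted p = 0.0474), where 0.198% of all genes fell and 0.0408% rose. None of the 98 fell in both shXBP1 clones, as 0.00617% of all genes did. The estimates pointed downward for 90 of the 98 genes in clone 1 and for 88 in clone 18. Medians of the 98 were -0.241 and -0.249, against -0.00763 and -0.00527 over all genes. How many of all genes pointed downward is not given here. In the highest of 5 equal bins of GC content, 65 of the 98 had medians of -0.282 and -0.28. The 2329 other genes of that bin had -0.132 and -0.119, so a downward shift was not confined to the 98.

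The difference between the knockdowns was tested directly, as the mean change of the 2 shIRE1 clones from 24 to 72 h minus that of the 2 shXBP1 clones, in a fit of all 48 libraries. Of the 98 genes 50 passed with a higher value in shIRE1 (12.3% of all genes did) and none with a lower value (12.4% of all genes). The estimate was above 0 for 91 genes, with a median of 0.423 against -0.00275 over all genes. The share of all genes with an estimate above 0 is not given here. Without the library that goes against its label 43 passed (12.6% of all genes), and 42 passed when shIRE1 clone 3, 24 h, replicate 1 was left out as well. The test with shIRE1 clone 1 against shXBP1 clone 1 alone called 20. With shIRE1 clone 3 against shXBP1 clone 18 alone it called 37, with the library that goes against its label included. The shares of all genes beside the 42, 20 and 37 are not given here.

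The 5 largest differences of the test belonged to HIST2H2BE (1.39 ± 0.11, SE, adjusted p = 1.63e-12), PDGFA (1.37 ± 0.30, adjusted p = 0.000524), HIST1H2AC (1.34 ± 0.11, adjusted p = 9.22e-13), IDUA (1.32 ± 0.26, adjusted p = 0.000195) and KCNN3 (1.28 ± 0.42, adjusted p = 0.0213). Values without the library that goes against its label were 2.14 ± 0.14 for PDGFA and 1.00 ± 0.12 for KCNN3, the one larger and the other smaller than with it, and both passed the test (adjusted p of 1.73e-15 and 3.59e-08). DGAT2, first at 48 h by the smallest of its 4 absolute changes, differed by 0.13 ± 0.09 (SE, adjusted p = 0.355) and PIGQ by 0.16 ± 0.25 (SE, adjusted p = 0.688). For both the share of the 48 h value present at 24 h was at least 75% in the shIRE1 clones. TMEM165 differed by 0.43 ± 0.08 (SE, adjusted p = 4.44e-05) and in the shIRE1 clones its changes were -0.04 ± 0.04 and 0.06 ± 0.07 (SE) with adjusted p of 0.492 and 0.504.

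Within the shIRE1 clones, the genes named above rose by different amounts. HIST2H2BE rose by 0.54 ± 0.10 (SE, adjusted p = 0.000472) in clone 1 and by 1.41 ± 0.07 (SE, adjusted p = 2.5e-09) in clone 3, and PDGFA by 1.8 ± 0.07 (SE, adjusted p = 2.12e-12) and 2.63 ± 0.08 (SE, adjusted p = 7.87e-12). WFS1 rose by 0.48 ± 0.09 (SE, adjusted p = 0.000333) and 0.68 ± 0.14 (SE, adjusted p = 0.00145). The cytokine gene LTA rose by 0.97 ± 0.12 (SE, adjusted p = 7.41e-06) and 0.83 ± 0.12 (SE, adjusted p = 6.34e-05), and the receptor gene IL10RA by 0.72 ± 0.08 (SE, adjusted p = 1.57e-06) and 0.58 ± 0.07 (SE, adjusted p = 2.61e-05). CTSA rose by less, at 0.18 ± 0.05 (SE, adjusted p = 0.00696) and 0.20 ± 0.07 (SE, adjusted p = 0.0392). DGAT2, at 0.14 ± 0.05 (SE, adjusted p = 0.0575) and 0.04 ± 0.06 (SE, adjusted p = 0.645), did not pass in either clone.

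**Figure D3:**
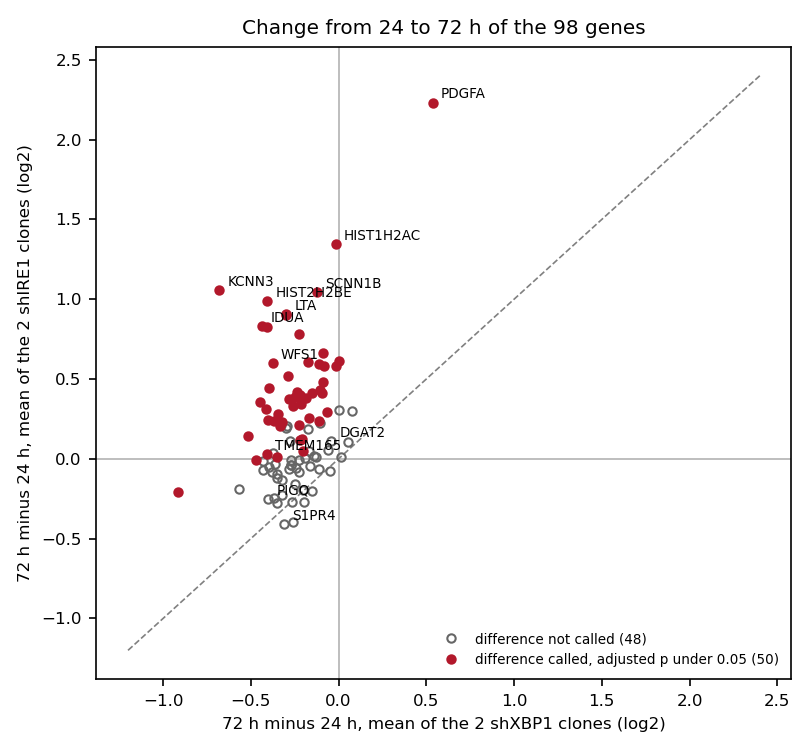
Change in mean log2 CPM from 24 to 72 h for each of the 98 genes, with the mean of the 2 shXBP1 clones on the horizontal axis and the mean of the 2 shIRE1 clones on the vertical axis. Filled points are the 50 genes whose difference between the knockdowns passed the edgeR test, open points the other 48, and the dashed line marks equal change. Called genes lie above the line, and PDGFA lies to the right with the library that goes against its label included.

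By role, the difference passed for 13 of the 16 genes of the surface, secretion and transport, 6 of 7 of chromatin and the nucleus, 5 of 7 of the Golgi and glycans, 2 of 3 of the ER, 10 of 17 non-coding genes, 3 of 10 of the lysosome, 2 of 5 of lipids and GPI and 2 of 7 of mitochondria, beside 12.3% of all genes. Without the library that goes against its label the counts were 10 of 16 for the surface group, 4 of 7 for the Golgi, 9 of 17 for non-coding genes and 1 of 5 for lipids and GPI, beside 12.6% of all genes, and those of the other groups were as before. The 24 genes that rose in both shIRE1 clones (9.29% of all genes did) included the 3 histone genes, POU2AF1, PDGFA, KCNN3, LTA, IL10RA, IDUA, CTSA and WFS1. CD79B was the only one of the 98 that fell in both (9.54% of all genes did), by -0.29 ± 0.06 (SE, adjusted p = 0.000515) and -0.29 ± 0.08 (SE, adjusted p = 0.00769). Its libraries stood at 95.6, 110 and 110 CPM at 24 h and at 89.4, 85.2 and 81.7 CPM at 72 h in shIRE1 clone 1, above the 58.4 to 64.3 CPM of 0 h. It had thus gone up by 24 h and come back in part.

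Genes differed in how early the 48 h value was reached. In both shIRE1 clones at least 75% of it was present at 24 h for 25 genes, among them DGAT2, PIGQ, PCYOX1L, TAPBP, TMEM165, TMEM9B, FUK, S1PR4 and CD79B. Under 25% was present for 10 genes, namely ANKRD10-IT1, AP001157.1, CENPT, HIST1H1C, HIST2H2BE, PDGFA, SCNN1B, SFXN5, SNHG12 and WFS1. The early group held both of the genes reported as cleaved by IRE1, and the late group held 2 of the 3 histone genes and the XBP1s target WFS1. These shares are ratios of means that share the 0 h libraries. In shIRE1 clone 3 the 24 h mean includes replicate 1, the library that correlated better with shIRE1 clone 1. For WFS1 it was the lowest library of that group. The shares were not computed without it, so the place of WFS1 in the late group is uncertain.

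The transcripts of these genes were rich in G and C. Their median GC content was 61.4% against 47.7% for all coding genes with a mean of at least 1, and 65 of the 95 genes with a GC value lay in the highest of 5 equal GC bins of all genes (57.7% to 72.8% GC). The 53 genes with the reverse pattern, down in both shIRE1 clones and up in both shXBP1 clones, had a median of 42.8%. GC content moved with the contrast over all genes. In the highest bin the medians of all genes at 48 h were 0.164, 0.348, -0.346 and -0.0176 in shIRE1 clones 1 and 3 and shXBP1 clones 1 and 18, and in the lowest bin they were -0.138, -0.259, 0.167 and 0.0290. Within the highest bin the 65 genes had medians of 0.673, 0.750, -0.484 and -0.349, beside 0.139, 0.334, -0.339 and -0.0119 for the other genes of that bin. The 48 h values chose the 65 genes, so a distance from the other genes of their bin was fixed in advance.

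Libraries of 1 group also differed by GC content. For each library the median of the highest GC bin minus that of the lowest was taken, with each gene set against its clone's 0 h mean. It was 0.444, -0.206 and -0.247 in the 3 libraries of shXBP1 clone 1 at 0 h, whose own mean is the reference. The first of these libraries held the high values of PIEZO1, WFS1, PIGQ and IDUA given above. Without it 69 genes met the rule, and 67 of them were among the 98. Without replicate 3 of shXBP1 clone 18 at 48 h, 162 genes met it, 96 of them among the 98, and without replicate 1 of that group 68 did.

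**Figure D4:**
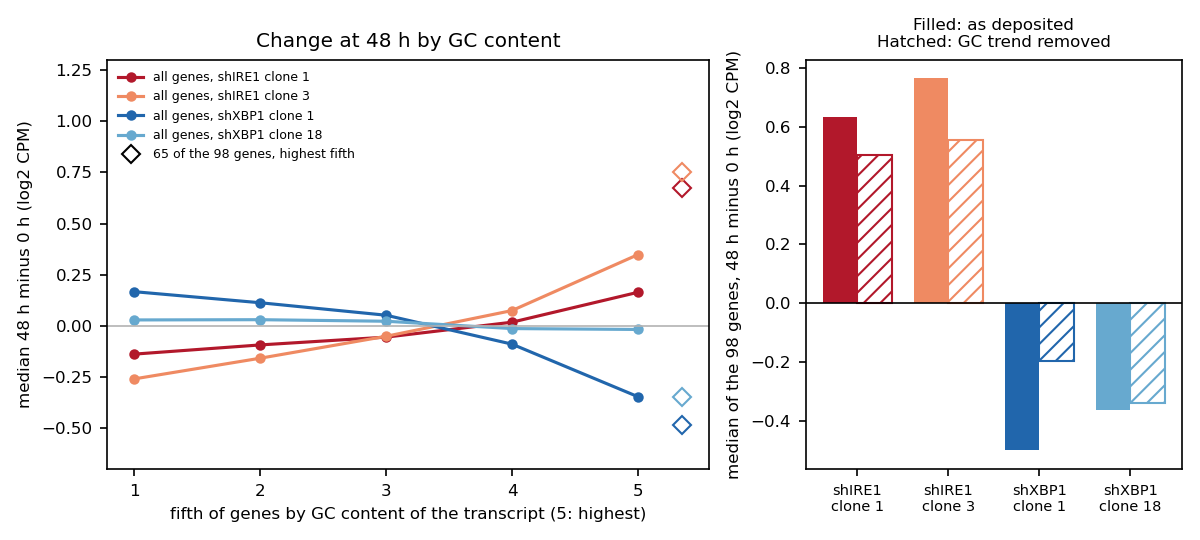
Left, median change at 48 h in log2 CPM of all genes by bin of transcript GC content (points joined by lines, 1 colour a clone), with diamonds for the 65 of the 98 genes that lie in the highest bin. Right, median change at 48 h of the 98 genes as deposited (filled bars) and after removal of each library's GC trend (hatched bars). The bars shrink most in shXBP1 clone 1, from -0.500 to -0.196, and least in shXBP1 clone 18, from -0.362 to -0.337.

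When the trend of each library with GC content was subtracted, 41 genes met the rule and 27 of them were among the 98, so that 71 no longer did. The 27 include ACTL10, AP001157.1 and AC092123.2, the 3 genes with no GC value, from which nothing was subtracted. The medians of the 98 at 48 h were then 0.505, 0.555, -0.196 and -0.337. DGAT2 kept the first place, with 1.83, 2.27, -1.06 and -0.772, and TMEM165, TAPBP, WFS1, KCNN3, PDGFA, LTA, GNPTG, CHPF2, HIST2H2BE and POU2AF1 also kept all 4 limits. PIGQ, at 0.188, 0.182, -0.400 and -0.694, no longer met the limit in the shIRE1 clones. IDUA, PIEZO1 and HIST1H2AC no longer met it in shXBP1 clone 1, at -0.0151, -0.195 and -0.152. By role the rule was still met by 5 of 16 genes of the surface group, 3 of 5 of lipids and GPI, 3 of 7 of the Golgi, 2 of 3 of the ER, 2 of 7 of chromatin, 2 of 10 of the lysosome and 0 of 7 of mitochondria. In the test of the difference between knockdowns, 41.5% of the 65 genes of the highest bin passed with a higher value, beside 10.9% of the 2329 other genes of that bin, and 32.3% beside 10.6% without the library that goes against its label. With the GC trend as an offset in the fit of all libraries 61 of the 98 passed with a higher value, as did 17.4% of all genes. The part of GC content in the pattern was not tested beyond these values.

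The products of the genes were often membrane or secreted proteins. A stretch of 19 residues with a mean hydropathy of at least 1.6, a mark of a membrane span or signal sequence, occurred in 62.8% of the 78 coding genes (49 genes) against 30.9% of all coding genes. It occurred in 68.5% of the genes lower in all 4 clones at 48 h, in 45.1% of those higher in all 4 and in 12.8% of those with the reverse pattern. The genes were compact, with a median span of 15.6 kb against 33.6 kb and a median transcript of 2600 bases against 3420. Chromosome 16 held 14 of them (14.7% against 4.62% of all genes) and chromosome 19 another 14 (14.7% against 7.11%), both of which are GC-rich chromosomes. In 6 pairs the genes lay within 50 kb of each other, among them IDUA and TMEM175, 28340 bases apart on chromosome 4, and CTSA and AL008726.1, which overlap on opposite strands. Of the 95 genes found, 74 overlap another annotated gene, 33 of them on the same strand, and whether strand was used in counting is not given in the sources used here, so the share of reads from such neighbours is uncertain.

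XBP1s and related factors bind elements with the core ACGTGG. Promoter sequences from RefSeq, 250 bases before to 50 after the start site (GRCh38.p14), matched 63 of the 78 coding genes. ACGTGG on either strand occurred in 3 of the 63 (4.76%), against 13.3% of all coding promoters matched and 36.8% of those of genes lower in all 4 clones. The core, in capitals, lay in these promoters as follows, shown because they are the only matches.
CTSA, first base of the core at -41 from the start: agactgtcACGTGGcgccggag
RPL29, at -122, on the opposite strand: caagccagACGTGGaggcggtg
TRIM46, at -69, with a second match on the opposite strand that overlaps it: cgagaaccACGTGGggagaact
The longer TGACGTGG, which contains the core, occurred in 0 of the 63 promoters and in 0.934% of all, and the ER stress element (ERSE) in 0 of 63 and in 0.163% of all. No match says only that these letters are not in this window.

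Gene lists of the pathway gave the following at 48 h, with no test. Of 18 mRNAs reported as cleaved by IRE1 9 were measured, 4 passed the limit upward in both shIRE1 clones and 5 downward in both shXBP1 clones, and DGAT2 and PIGQ alone did both. CD59, a GPI-anchored inhibitor of complement, shared the shXBP1 arm only, with 0.36 ± 0.03 and 0.09 ± 0.05 (SE) in the shIRE1 clones and -1.13 ± 0.04 and -1.12 ± 0.02 (SE) in the shXBP1 clones. TNFRSF10B, the death receptor DR5, shared the shIRE1 arm only, with 0.74 ± 0.01 and 0.67 ± 0.03 (SE) against 0.05 ± 0.02 and 0.01 ± 0.02 (SE). BLOC1S1, a subunit of a lysosome-positioning complex and a much used marker of RIDD, had 0.11 ± 0.02, -0.49 ± 0.08, -0.40 ± 0.08 and -0.48 ± 0.07 (SE), so 3 of its 4 values were below 0. TGOLN2 was below 0 in all 4 clones (-0.393, -0.0515, -0.879 and -0.669), and SNN had the reverse signs (-1.11, -0.388, 0.197 and 0.313). GALNT10 had 0.645, 0.811, -0.141 and -0.201, and HGSNAT had 0.987, 0.153, 0.388 and -0.432.

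Of 51 XBP1s targets, 41 passed the limit downward in both shIRE1 clones, 33 downward in both shXBP1 clones, and WFS1 was the only one among the 98. Of 25 measured components of ER-associated degradation none was among the 98, and of 26 measured genes of the integrated stress response, which ATF4 controls, none was. Among 36 measured lysosomal genes 3 were (CTSA, IDUA and SMPD1), among 26 genes of GPI anchor synthesis 2 (PIGQ and PGAP3) and among 17 of glycerolipid metabolism 1 (DGAT2). The medians of the GPI list were -0.172 and -0.338 in the shIRE1 clones, opposite in sign to PIGQ and PGAP3.

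The limits of the rule fell in a dense part of the distribution. Just inside the limit on change were SCNN1B, with a smallest change of 0.25, AACSP1 with 0.251 and TMEM120B with 0.254. Just outside were RFNG with 0.249, SYNGR3 with 0.248 and SLC12A9 with 0.248. On mean level the nearest inside were IDUA at 1.01, ACTL10 at 1.04 and AL158206.1 at 1.10 log2 CPM, and the nearest outside CTSO at 0.935, TMC3-AS1 at 0.932 and AC008443.1 at 0.879. With a limit of 0.5 in place of 0.25, 9 genes remained.

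At 0 h, before Dox, the clones of 1 target already differed. In shIRE1 clone 3 the 98 genes stood a median of 0.163 log2 above clone 1, where ERN1 was higher by 1.5, and in shXBP1 clone 18 they stood a median of -0.0559 below clone 1, where ERN1 was higher by 1.11. The medians over all genes were -0.0101 and -0.0243. Clones are single lines, and the difference in ERN1 cannot be told apart from other differences between them.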

How the data were processed

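RNA-seq of 48 libraries (stranded poly(A) kit, single-end reads of 50 bases) was analysed. The authors deposited raw counts for 58302 genes and a log2 CPM table of 18401 genes, which equals edgeR log2 CPM with TMM factors and a prior count of 2 to within 4.97e-14. The submitters' processing notes name GSNAP, R 4.1.3, edgeR 3.32.1, limma 3.46.0 and GRCh37. The study's methods name a total RNA kit and GRCh38 for a related experiment. Coordinates and transcripts are therefore taken by gene ID from GENCODE 44 on GRCh38.

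The genes, lists, tests and alternatives were chosen with earlier results of these data known. Roles, sequence features and GC alternatives came after the values were seen. Counts were fitted with edgeR 4.0.16 in R 4.3.3 (filterByExpr, minimum count 10, minimum total count 15, TMM, quasi-likelihood F test), with 12 libraries of a clone or all 48, and P-values were adjusted by Benjamini-Hochberg over all genes. TMM factors ran from 0.927 to 1.08. The fits were tested on simulated data. CPM values are counts scaled by TMM library sizes, differences at 24, 48 and 72 h against 0 h are in mean log2 CPM, and SE is that of the difference. Counting error bears most on the lowest levels: IDUA, with the lowest group mean (0.652 CPM), rested on 16 to 25 counts a library there.

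Genes named by rule were ERN1, XBP1, those of the 98 on the cleavage and XBP1s lists, the 24 with the largest smallest change at 48 h, the 5 largest differences of the test, and the 3 nearest each limit. All other genes named were chosen after their values were seen. GC trends are lowess curves of each library's deviation from the mean against transcript GC. Alternatives were RLE factors, no filter, DESeq2 1.42.0, limma 3.58.1 on log2 CPM, a replicate block, all 48 libraries, GC trends and leaving out libraries.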

Additional observations from a re-analysis of the deposited data

Results flagged for a closer look

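The change from 24 to 72 h differed between the knockdowns, by the test of the difference itself, for 50 of the 98 genes. The largest differences (shIRE1 minus shXBP1, log2) were those of HIST2H2BE (1.39), PDGFA (1.37), HIST1H2AC (1.34), IDUA (1.32) and KCNN3 (1.28). With replicate 3 of shXBP1 clone 18 at 72 h, which goes against its label, left out, 43 genes passed, PDGFA had the largest difference (2.14) and that of KCNN3 was 1.00, below those of LTA, SCNN1B and PRR7-AS1. Groups held 3 libraries each, too few for a test of single outlying libraries.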

How the results depend on the processing

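Among 2698 values for single genes under the alternatives, 2506 kept their side of the threshold, 101 lost significance, 91 gained it and none reversed. The replicate numbers did not pair the samples (correlations of deviations between 24 and 72 h of -0.652 to 0.207), and the replicate block changed the count of genes called by 72 h over 24 h to 1 in shXBP1 clone 18 and moved no other count by over 1.5 times. Counts under the alternatives are given here without the share of all genes called, which also moved, so they describe no trait of these genes. In shIRE1 clone 1, 49 genes were called with the GC trend as an offset, 50 with that and the block, and 18 in a fit of all 48 libraries. In shIRE1 clone 3, 56 and 55 were called with the GC offset without and with the block. In shXBP1 clone 1, where the main count was 0, 1 was called with no filter, 1 by DESeq2, 12 with the GC offset, 10 with that and the block, and 2 in the fit of all libraries. In shXBP1 clone 18, against 2, these counts were 31, 14, 8, 4 and 14. The difference between knockdowns gave 20 with clone 1 of each only and 37 with shIRE1 clone 3 and shXBP1 clone 18 only. The rule collected 9 genes at a limit of 0.5, 268 with no minimum level and 41 with the GC trend removed. The medians at 24 h in the shIRE1 clones moved to 0.299 and 0.265 with the GC trend removed, and that of shXBP1 clone 1 from -0.271 to -0.0686 at 24 h and from -0.472 to -0.234 at 72 h. The causes were not tested. Leaving out 1 library at a time gave 26 to 32 genes in shIRE1 clone 1, 28 to 45 in clone 3, 0 in shXBP1 clone 1, 0 to 26 in clone 18 (0 without 24 h replicate 2 or 3, 1 without 72 h replicate 2, 26 without 72 h replicate 1), 40 to 52 for the difference and 68 to 162 for the number of genes.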
